A study of Homo sapiens with 6 samples.

Results

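FAM163A, LRRC4 and SPOCK2 had some of the largest decreases with panobinostat in cultures labelled as the bladder carcinoma line HT1197. They are described here with FAM163B, LRRC4B, LRRC4C, SPOCK1 and SPOCK3, their close paralogues. These 8 genes were found by symbol among the 22718 genes of the deposited tables. FAM163A, LRRC4 and SPOCK2 were chosen by the log2 fold change of this same comparison, so their changes are given as a description with no test. The 5 paralogues were added for their relation to those 3. The panobinostat arm held 3 libraries (A, B and C) of cells exposed for 48 hours to 2 times the line's IC50 of panobinostat, an inhibitor of histone deacetylases. The vehicle arm held 3 libraries (A, B and C) whose label reads untreated and which the treatment protocol describes as kept for 48 hours in 1% DMSO. All libraries carry the name of the established line HT1197, grown in serum-supplemented medium and seeded in triplicate dishes. The labels do not tie a library to a dish, so every p-value rests on differences among libraries that could be technical replicates.

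Markers went against the bladder label. Of 14 luminal urothelial markers 8 had a row and none stood at 10 FPKM (counts per length of gene and depth of library) or more in either arm. Their summed level was 2.93 to 3.19 FPKM in panobinostat libraries and 1.10 to 1.39 FPKM in vehicle libraries, and UPK1B and FOXA1 had no vehicle counts. Of 11 basal urothelial markers 7 had a row, with a sum of 4.36 to 5.04 FPKM in panobinostat libraries and 2.46 to 2.65 FPKM in vehicle libraries. Markers of adrenergic neuroblasts summed to 1630 to 1720 FPKM with panobinostat and 2030 to 2300 FPKM with vehicle. At 10 FPKM or more stood 10 of the 14 with panobinostat and 12 with vehicle. Levels within that list were uneven, and TH stood at 0.0683 ± 0.0456 FPKM with panobinostat and 0.0875 ± 0.0316 FPKM with vehicle. The cells are therefore called by their library label only. Library totals ran from 13417898 to 18186087 counts with panobinostat and from 14287080 to 18095984 with vehicle.

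The families encode different kinds of protein. FAM163A encodes a small protein first described as a neuroblastoma-derived secretory protein, and FAM163B is its paralogue. LRRC4, LRRC4C and LRRC4B encode the netrin-G ligands, single-pass membrane proteins with leucine-rich repeats that sit on the postsynaptic side and hold synapses together by binding partners on the axon. LRRC4C binds netrin-G1, LRRC4 binds netrin-G2, and LRRC4B binds receptor phosphatases of the LAR group. SPOCK1, SPOCK2 and SPOCK3 encode the testicans, secreted proteoglycans of the SPARC family that are abundant in brain matrix and carry heparan or chondroitin sulphate chains.

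The members are protein-coding genes spread over different chromosomes (GRCh38, GENCODE 29). FAM163A (ENSG00000143340) lies on chromosome 1 from 179743163 to 179816198, and FAM163B (ENSG00000196990) on chromosome 9 from 133578415 to 133586197. LRRC4 (ENSG00000128594) lies on chromosome 7 from 128027071 to 128032107, wholly inside SND1, which runs on the opposite strand and shares no exon bases with it. LRRC4B (ENSG00000131409) spans 51.2 kb of chromosome 19, and LRRC4C (ENSG00000148948) spans 1345.6 kb of chromosome 11. SPOCK2 (ENSG00000107742) spans 30.0 kb of chromosome 10, while SPOCK1 (ENSG00000152377, chromosome 5) and SPOCK3 (ENSG00000196104, chromosome 4) span 623.1 and 501.4 kb. Only FAM163A shares exon bases with another annotated gene, 15 bases with an antisense transcript that has no row in the tables.

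Stretches before a RefSeq start site are shown for the members that moved most, except LRRC4C, for which none was available. Each stretch is the longest unbroken run, within the 250 bases before a RefSeq start site (GRCh38.p14), that lies outside the gene's GENCODE exons, written 5′ to 3′ on the gene's strand. Where RefSeq gives several starts, the one nearest the GENCODE gene start was taken. Capitals mark E-boxes (CANNTG), the core to which basic helix-loop-helix factors bind, and GC boxes (GGGCGG on either strand), the core of Sp1 sites. FAM163A is read from chr1:179743041-179743162 on the plus strand. FAM163B is read from chr9:133586198-133586369, LRRC4 from chr7:128031438-128031506, SPOCK2 from chr10:72089033-72089282 and SPOCK3, a paralogue that rose, from chr4:167234591-167234693, all on the minus strand. The LRRC4 and SPOCK3 stretches lie inside the GENCODE gene, outside its exons, and so are not upstream of the gene.
FAM163A: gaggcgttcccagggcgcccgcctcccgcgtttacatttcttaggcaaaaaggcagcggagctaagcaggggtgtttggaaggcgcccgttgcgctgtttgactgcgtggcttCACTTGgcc
FAM163B: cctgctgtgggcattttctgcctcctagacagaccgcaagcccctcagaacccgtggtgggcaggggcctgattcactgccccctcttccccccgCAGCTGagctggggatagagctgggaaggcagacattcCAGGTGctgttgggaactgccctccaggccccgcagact
LRRC4: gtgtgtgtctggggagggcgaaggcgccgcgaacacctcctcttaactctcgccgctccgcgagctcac
SPOCK2: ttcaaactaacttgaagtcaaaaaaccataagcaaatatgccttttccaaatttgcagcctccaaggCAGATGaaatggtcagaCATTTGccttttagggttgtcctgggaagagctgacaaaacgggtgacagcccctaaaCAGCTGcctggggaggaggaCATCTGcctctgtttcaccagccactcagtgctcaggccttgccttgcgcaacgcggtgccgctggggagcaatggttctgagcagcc
SPOCK3: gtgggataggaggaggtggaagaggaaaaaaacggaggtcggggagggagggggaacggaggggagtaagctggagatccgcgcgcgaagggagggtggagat

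The windows taken for the lowered genes differed in make-up, and upstream below means before the RefSeq start used. The full windows of 250 bases include bases of the gene's own GENCODE exons for FAM163A (128), FAM163B (78), LRRC4 (115) and SPOCK3 (147). For LRRC4B the start used lay 17003 bases inside the GENCODE gene, at the start of another of its transcripts. For LRRC4 it lay 670 bases inside, 184 bases from the nearest GENCODE transcript start. For SPOCK3 it lay 302 bases inside, at the start of a GENCODE transcript. The windows of LRRC4, LRRC4B and SPOCK3 thus lie wholly within the gene, and their make-up may be that of transcribed sequence. Over the full 250 bases, SPOCK2 held 51.6% G or C and 5 CpG dinucleotides, whereas LRRC4 held 74.0% and 38. All 35116 RefSeq windows of that length had medians of 58.0% and 11. E-boxes numbered 4 upstream of SPOCK2, 2 upstream of FAM163A, 2 upstream of FAM163B and none upstream of LRRC4, with 1 each for LRRC4B and SPOCK3, and 61.8% of all windows held at least 1. A GC box was found upstream of LRRC4 and of LRRC4B, against 42.6% of all windows, and none upstream of FAM163A, FAM163B, SPOCK2 or SPOCK3. FAM163A alone of the 6 held a CCAAT box (CCAAT, in 32.0% of windows). None of the 6 held the E-box CACGTG (6.34% of windows), TATAAA (10.7%), the GATA site AGATAA (9.17%) or a paired homeodomain palindrome (TAATNNNATTA, 0.330%), each searched on both strands. CACGTG is itself a CANNTG match. LRRC4C and SPOCK1 have no entry in the promoter table.

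**Figure D1:**
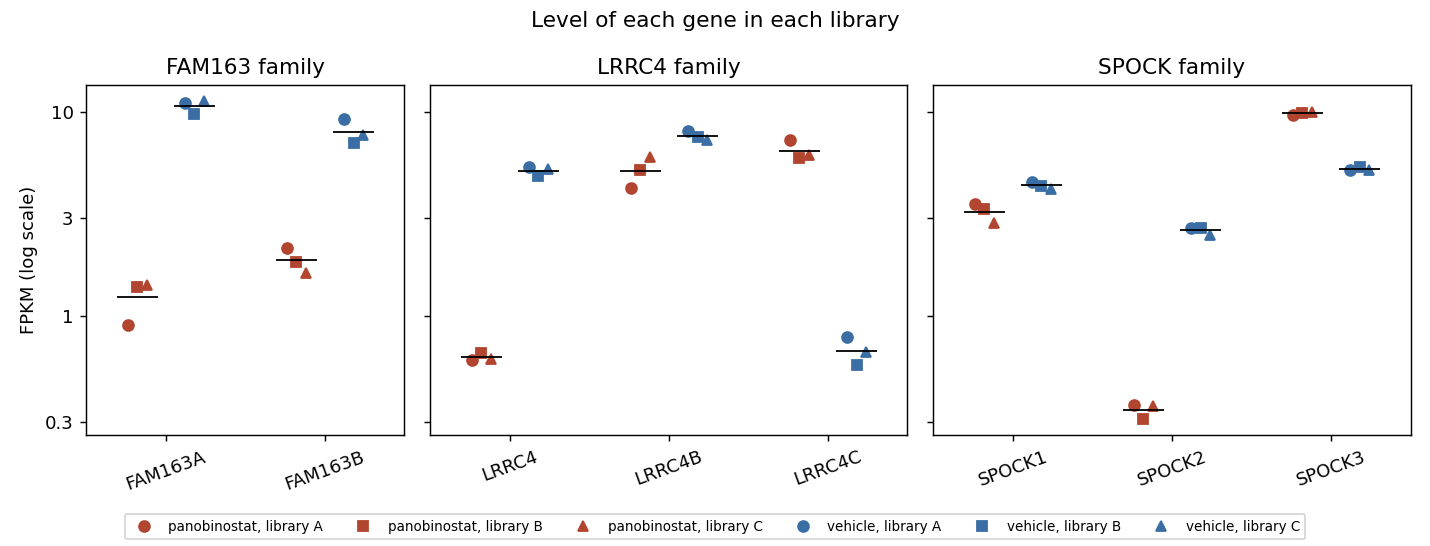
FPKM (log scale) of the 8 genes in each of the 3 panobinostat libraries (red, left of each pair) and the 3 vehicle libraries (blue, right); symbols give the library letter and bars the mean. LRRC4C and SPOCK3 stood higher in all panobinostat libraries, and the other 6 genes stood lower.

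Both FAM163 genes stood lower in every panobinostat library. FAM163A stood at 2.50, 3.84 and 4.02 CPM (counts scaled to a common library total, with a correction for composition) in panobinostat libraries A, B and C, against 33.3, 29.7 and 34.4 CPM in vehicle libraries A, B and C. The arms did not overlap, and panobinostat library A was the lowest, at 35 counts. The fitted log2 change was -3.21 ± 0.14 (SE), a level 0.108 times that of vehicle. FAM163B stood at 2.78, 2.37 and 2.14 CPM with panobinostat and at 12.8, 10.0 and 10.9 CPM with vehicle. Its arms lay apart too, and the log2 change was -2.21 ± 0.17 (edgeR quasi-likelihood test, adjusted p = 3.48e-08).

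The netrin-G ligand genes moved in opposite directions. LRRC4, the receptor for netrin-G2, stood at 2.36, 2.54 and 2.41 CPM in panobinostat libraries A, B and C, against 22.4, 20.4 and 22 CPM in vehicle libraries. These arms did not overlap, and the log2 change was -3.14 ± 0.13. LRRC4C, the receptor for netrin-G1, stood at 37.2, 30.6 and 32.0 CPM with panobinostat and at 4.33, 3.22 and 3.70 CPM with vehicle. All 3 panobinostat libraries were far above all 3 vehicle libraries, a rise of 3.15 ± 0.13 on the log2 scale (edgeR adjusted p = 7.17e-11) to 8.91 times the vehicle level. LRRC4B, the partner of LAR-type phosphatases, stood at 12.6, 15.4 and 18.3 CPM with panobinostat and at 26.0, 24.6 and 23.7 CPM with vehicle. Its panobinostat libraries spread more than its vehicle libraries (CV 18.2% with panobinostat and 4.66% with vehicle) without reaching them, and it fell by 0.67 ± 0.12 on the log2 scale (edgeR adjusted p = 0.000199).

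The testican genes also split. SPOCK2 stood at 2.28, 1.95 and 2.30 CPM in panobinostat libraries A, B and C, against 18.3, 18.5 and 17.0 CPM in vehicle libraries. No panobinostat library came near a vehicle library, and the log2 change was -3.04 ± 0.14. SPOCK1, whose protein inhibits cathepsin L in biochemical assays, stood at 21.0, 19.8 and 17.4 CPM with panobinostat and at 29.1, 28.3 and 27.1 CPM with vehicle. It fell by 0.54 ± 0.10 on the log2 scale (edgeR adjusted p = 0.000188), with arms that did not overlap. SPOCK3 stood at 41.4, 42.6 and 43.7 CPM with panobinostat and at 23.9, 25.1 and 24.3 CPM with vehicle. It was the steadiest member within an arm (CV 2.67% with panobinostat and 2.56% with vehicle) and rose by 0.80 ± 0.08 (edgeR adjusted p = 7.16e-07).

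**Figure D2:**
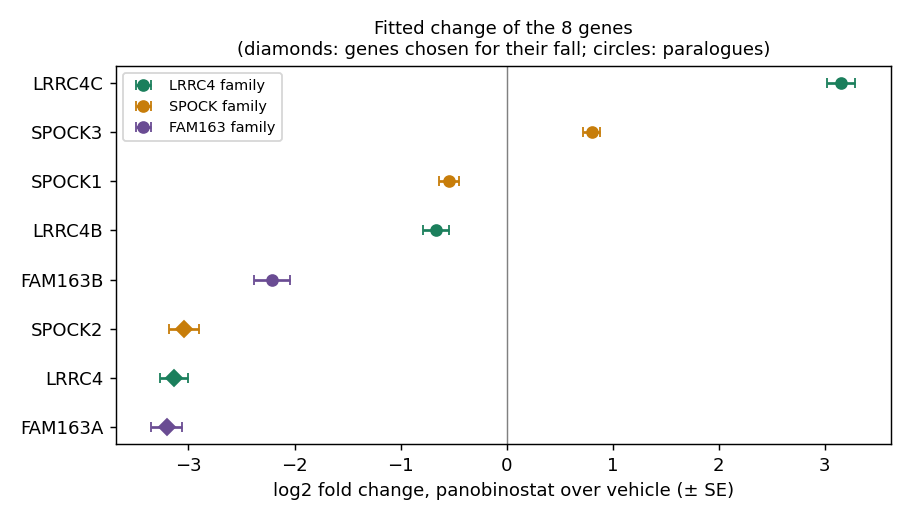
Fitted log2 fold change of panobinostat over vehicle (horizontal axis) with its SE for each gene; diamonds mark the genes picked for their fall and circles the paralogues. LRRC4C lies at 3.15, and no SE bar of a paralogue reaches 0. FAM163A, LRRC4 and SPOCK2, picked for their fall, lie between -3.21 and -3.04.

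FAM163A, LRRC4 and SPOCK2 were taken from genes that were abundant enough and had arms apart, so neither property is counted for them. All 5 paralogues were kept by the abundance filter, had arms that did not overlap and passed the threshold, 3 of them lower and 2 higher. The same holds for much of the table. Of the 16084 genes tested 65.2% passed, 33.7% raised and 31.5% lowered, and 68.8% had arms that did not overlap (35.5% with panobinostat above and 33.4% with it below). With upper quartile scaling, which moved the median log2 change of all genes from 0.014 to 0.152, genes raised made up 63.2% of the calls in place of 51.7%. A log2 change of 3 or more in size was seen for 28 genes that were lower (0.174%) and 773 that were higher (4.81%). FAM163A, LRRC4 and SPOCK2 ranked 22, 24 and 27 by size of fall among all genes tested and FAM163B ranked 82, while LRRC4C ranked 712 by size of rise. Counting only lowered genes whose 6 libraries averaged at least 10 CPM and whose arms were apart, the 3 ranked 7, 8 and 9. At the edge of the first 10 stood IGF2-AS (-2.89) and, next outside, the procollagen enhancer gene PCOLCE (-2.78). In bulk RNA, fewer cells of a kind and less RNA per cell cannot be told apart.

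Read per length, some genes changed places and others kept theirs: LRRC4B ranked 3 of the 8 in both arms and SPOCK2 was last or next to last. In panobinostat libraries SPOCK3 was highest, at 9.86 ± 0.187 FPKM (mean ± SD, n = 3), followed by LRRC4C at 6.45 ± 0.702, LRRC4B at 5.13 ± 0.891, SPOCK1 at 3.24 ± 0.338, FAM163B at 1.87 ± 0.264, FAM163A at 1.23 ± 0.290, LRRC4 at 0.627 ± 0.0267 and SPOCK2 at 0.344 ± 0.0297. Among neighbours in that order, LRRC4C and LRRC4B overlapped in range and the others did not. In vehicle libraries FAM163A was highest, at 10.7 ± 0.844 FPKM, followed by FAM163B at 7.98 ± 1.10, LRRC4B at 7.62 ± 0.416, SPOCK3 at 5.23 ± 0.101, LRRC4 at 5.14 ± 0.287, SPOCK1 at 4.35 ± 0.190, SPOCK2 at 2.63 ± 0.127 and LRRC4C at 0.673 ± 0.106. There FAM163B overlapped LRRC4B, and SPOCK3 overlapped LRRC4. LRRC4C, lowest of the 8 with vehicle, was thus second with panobinostat. Among all 22718 genes ranked by FPKM, FAM163A lay at the 43.8th percentile with panobinostat and at the 79.6th with vehicle, and LRRC4C lay at the 70.2nd with panobinostat and at the 41.0th with vehicle.

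The summed FPKM of a family hid much of this. The netrin-G ligand genes together stood at 12.2 ± 0.498 FPKM with panobinostat and 13.4 ± 0.707 FPKM with vehicle. The testican genes stood at 13.4 ± 0.187 FPKM with panobinostat and 12.2 ± 0.336 FPKM with vehicle. Unlike CPM, FPKM carries no correction for composition, whose factors were 1.03 to 1.05 for panobinostat libraries and 0.96 to 0.97 for vehicle libraries. Differences this small between the arms' sums are therefore not read, and shares within a library do not depend on that correction. The make-up within those sums differed in every library. LRRC4C made up 60.0, 50.6 and 48.1% of its family in panobinostat libraries A, B and C, against 5.51, 4.44 and 5.03% in vehicle libraries. LRRC4 made up 4.81 to 5.58% with panobinostat and 37.3 to 39.7% with vehicle. SPOCK3 made up 71.3 to 75.6% of the testican sum with panobinostat and 41.6 to 43.8% with vehicle, and SPOCK2 made up 2.29 to 2.72% with panobinostat and 21.0 to 21.8% with vehicle. The FAM163 pair, where both members were lower, summed to 3.10 ± 0.0918 FPKM with panobinostat and 18.7 ± 1.76 FPKM with vehicle. FAM163A was the smaller part of that pair in each panobinostat library (29.4, 43.0 and 46.6%) and the larger part in each vehicle library (54.6, 58.0 and 59.6%).

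**Figure D3:**
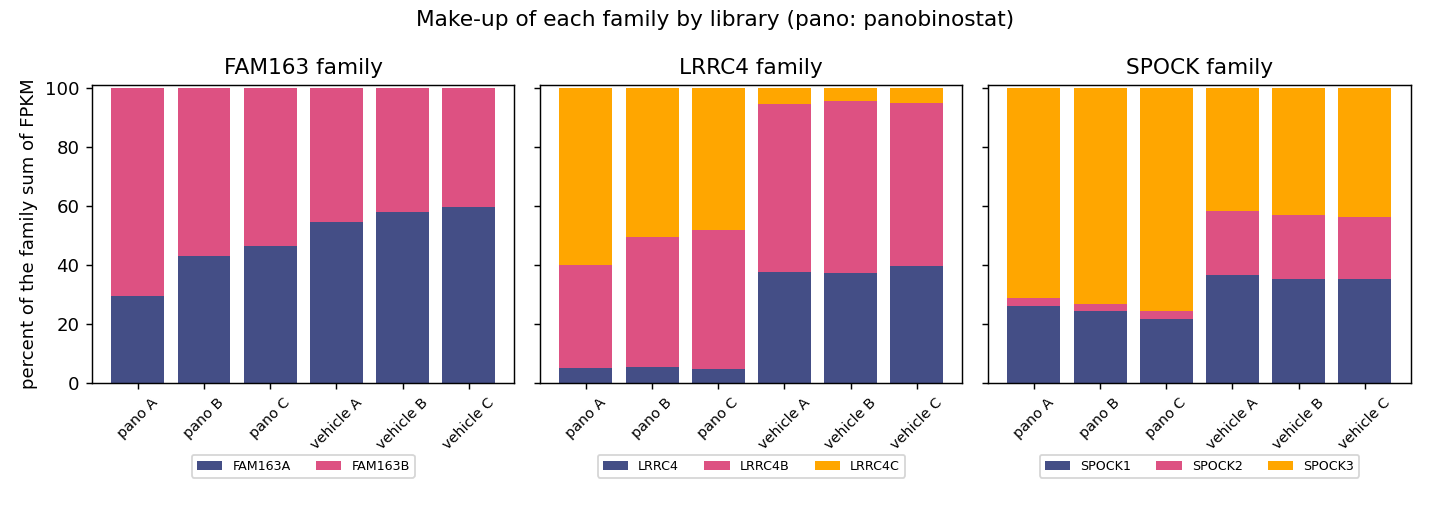
Percent of each family's summed FPKM held by each member (vertical axis), in the 3 panobinostat and 3 vehicle libraries. LRRC4C filled 48.1 to 60.0% of its family with panobinostat and 4.44 to 5.51% with vehicle, and SPOCK3 filled 71.3 to 75.6% with panobinostat and 41.6 to 43.8% with vehicle.

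Binding partners of the netrin-G ligands were next compared. Of 9 such genes 5 rose and 2 fell, beside 33.7% raised and 31.5% lowered over all genes tested. Their median log2 change was 0.33, against 0.014 over all genes tested. NTNG1, the netrin-G1 gene whose product binds LRRC4C, rose to 38.9 ± 3.04 CPM with panobinostat, against 21.2 ± 1.26 CPM with vehicle (log2 change 0.87 ± 0.09, edgeR adjusted p = 1.21e-06). NTNG2, the netrin-G2 gene whose product binds LRRC4, also rose, to 11.8 ± 0.502 CPM with panobinostat, against 7.59 ± 1.09 CPM with vehicle (0.63 ± 0.13, edgeR adjusted p = 0.000786), although LRRC4 was lower. The phosphatase genes that pair with LRRC4B went both ways. PTPRD rose by 0.73 ± 0.10 and PTPRF by 0.33 ± 0.07, and PTPRS fell by 0.48 ± 0.07 on the log2 scale. Among genes of postsynaptic scaffolds, DLG2 (PSD-93) rose by 0.99 ± 0.20 and DLG3 (SAP102) fell by 0.98 ± 0.11. DLG4 (PSD-95), which binds netrin-G ligands inside the cell, did not pass (-0.02 ± 0.10, edgeR adjusted p = 0.892), and neither did DLG1 (0.18 ± 0.08, edgeR adjusted p = 0.0598).

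Other synaptic adhesion genes with leucine-rich repeats went both ways, as the LRRC4 family did. Of 30 listed, 25 had a row and 23 were tested, of which 12 rose and 8 fell, beside 33.7% raised and 31.5% lowered over all genes tested. Their median log2 change was 0.40, also with a gene at 0 vehicle counts set to its bound. SLITRK1, LINGO3 and ELFN2 had under 10 vehicle counts over the arm and passed the filter through the panobinostat libraries, so they had to differ; SLITRK1 had 0 vehicle counts, and its fitted change is no bound. Among genes averaging at least 1 CPM, 9 of the list rose and 8 fell. Many tested genes of the list averaged under 10 CPM. Of all tested genes averaging 1 to 10 CPM, 43.9% rose and 16.7% fell, and of those at 10 to 100 CPM, 28.5% rose and 40.5% fell. LRRTM4, a synapse organiser of the LRRTM family, rose to 33.2 ± 0.708 CPM with panobinostat, against 2.03 ± 0.0651 CPM with vehicle. Its relative LRRTM2 fell to 1.43 ± 0.449 CPM with panobinostat, against 6.70 ± 0.0848 CPM with vehicle. SLITRK3, which organises inhibitory synapses, rose by 1.73 ± 0.17, and LRRN2 fell by 1.98 ± 0.27 on the log2 scale. With limma on log2(FPKM + 1) and its filter at 1 FPKM, which tests fewer genes, 7 of the list rose.

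The relatives and working partners of the testicans also differed in direction. Of 5 further SPARC family genes 4 were tested. SPARC itself, a collagen-binding matrix protein, rose to 558 ± 34.8 CPM with panobinostat, against 274 ± 7.58 CPM with vehicle. SMOC1 was lower by edgeR (-0.43 ± 0.16, adjusted p = 0.0243), but its arms overlapped, and no gene of the list fell without panobinostat library B or C, without vehicle library C, with library size alone, with upper quartile scaling, with limma on FPKM or at an adjusted p of 0.01. SMOC2 and FSTL1 did not pass (0.003 ± 0.13 and -0.04 ± 0.26).

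Testicans have been reported to act on cathepsin L and on membrane-type matrix metalloproteinases. Of 11 genes of such proteases and their inhibitors 9 were tested, 5 fell and 2 rose (median log2 change -0.30). Over all genes tested 31.5% fell and 33.7% rose. The share that fell was 40.5% of genes averaging 10 to 100 CPM and 48.1% of those at 100 CPM or more. TIMP1, an inhibitor of matrix metalloproteinases, fell by 3.26 ± 0.16 on the log2 scale, to 1.58 ± 0.213 CPM with panobinostat, against 15.2 ± 1.41 CPM with vehicle. MMP15 and MMP24, both membrane-type metalloproteinases, fell by 0.51 ± 0.08 and 0.66 ± 0.09. MMP16, a more abundant gene of the same class, rose by 0.20 ± 0.08 (edgeR adjusted p = 0.0334), to 192 ± 7.78 CPM with panobinostat, against 168 ± 12.7 CPM with vehicle. CTSB, cathepsin B, rose to 127 ± 8.47 CPM with panobinostat, against 69.2 ± 2.90 CPM with vehicle. CTSL, cathepsin L, did not pass (-0.09 ± 0.09), nor did MMP2 (-0.19 ± 0.08). MMP14 was not tested, at 0.301 ± 0.0185 CPM with panobinostat and 0.188 ± 0.0243 CPM with vehicle, near the 0.165 to 0.224 CPM that 3 counts stand for. The raised count was 1 without panobinostat library A or B or vehicle library A or C, with DESeq2, with no filter and at an adjusted p of 0.01. The lowered count was 3 with limma on FPKM without a filter.

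Of 32 genes that build the glycosaminoglycan chains of proteoglycans such as the testicans, 31 were tested, 13 rose and 10 fell (median log2 change 0.10). Over all genes tested 33.7% rose and 31.5% fell. The 4 called genes with the largest change and at least 1 CPM on average all rose, with low vehicle levels. NDST4, a heparan sulphate sulphotransferase, rose to 5.93 ± 0.458 CPM with panobinostat, against 0.581 ± 0.178 CPM with vehicle. HS6ST3 rose to 7.33 ± 0.712 CPM with panobinostat, against 1.06 ± 0.586 CPM with vehicle, and HS3ST1 to 2.75 ± 0.480 CPM with panobinostat, against 0.531 ± 0.419 CPM with vehicle. CSGALNACT1, which starts chondroitin sulphate chains, rose by 2.05 ± 0.26 on the log2 scale. The more abundant NDST1 had the largest fall of the list, to 43.1 ± 2.28 CPM with panobinostat, against 96.1 ± 6.99 CPM with vehicle. With limma on log2(FPKM + 1) and its filter, 7 of the list rose.

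**Figure D4:**
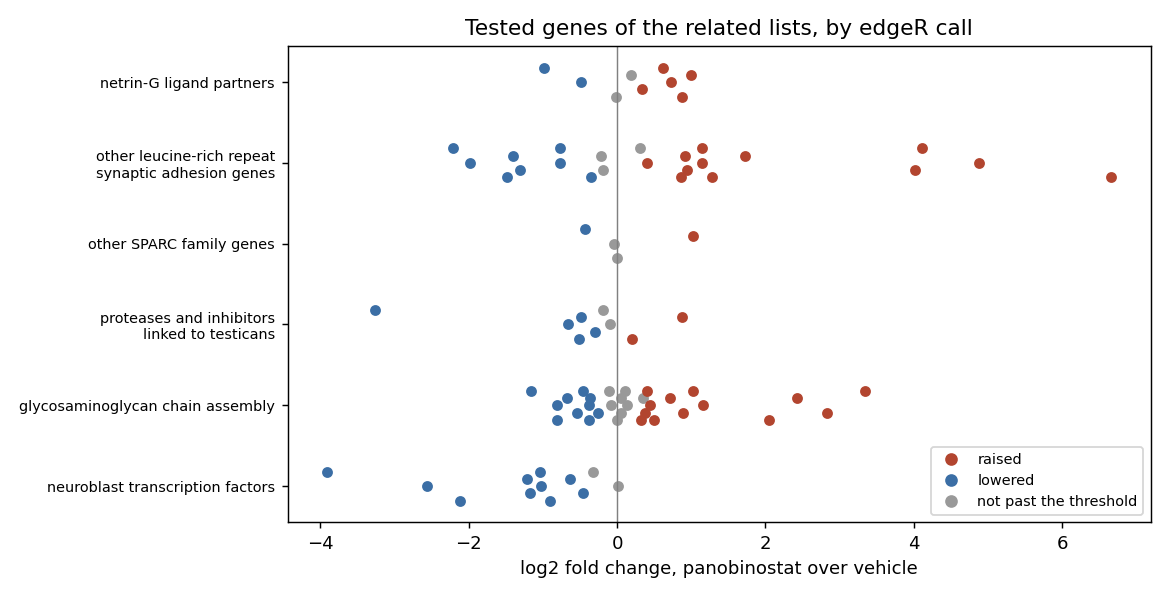
Log2 fold change of panobinostat over vehicle (horizontal axis) of each tested gene in 6 related lists (rows), coloured by its edgeR call. The neuroblast factors hold 10 lowered and no raised genes, and the other lists hold genes on both sides of 0.

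FAM163A was described in neuroblastoma, and most markers of adrenergic neuroblasts were lower with panobinostat, by differing amounts. Of 12 neuroblast transcription factor genes 10 fell and 0 rose by edgeR, with a median log2 change of -1.04. Over all genes tested 31.5% fell, and the share was 40.5% of those averaging 10 to 100 CPM and 48.1% of those at 100 CPM or more. Of 13 neuroblast markers tested, 11 fell and 1 rose. The one that rose was CHGA, at 1400 ± 44.1 CPM with panobinostat and 1040 ± 27.9 CPM with vehicle, and ELAVL4 did not pass (0.06 ± 0.08). Some falls were small beside those of FAM163A, LRRC4 and SPOCK2, as for DDC (-0.24 ± 0.08) and HAND2 (-0.46 ± 0.07). The lists share 7 genes. LMO1, a cofactor of neuroblast factors, fell by 2.56 ± 0.15 on the log2 scale, and TFAP2B fell by 2.12 ± 0.12. Schwann cell and glial markers summed to 5.08 to 5.32 FPKM with panobinostat and 0.460 to 0.653 FPKM with vehicle, and fibroblast markers to 84.0 to 90.0 FPKM with panobinostat and 42.3 to 42.8 FPKM with vehicle. Among the fibroblast markers LUM stood at 42.4 ± 1.09 FPKM with panobinostat and 0.654 ± 0.102 FPKM with vehicle, and PDGFRA (28.4 ± 1.80 FPKM with panobinostat and 30.5 ± 1.44 FPKM with vehicle) and THY1 (4.79 ± 0.0354 FPKM with panobinostat and 6.19 ± 0.808 FPKM with vehicle) fell by edgeR. Endothelial markers summed to 0.577 to 0.637 FPKM with panobinostat and 0.115 to 0.154 FPKM with vehicle, and leukocyte markers to 0.419 to 0.798 FPKM with panobinostat and 0.682 to 1.27 FPKM with vehicle. The part of these shifts in the members' changes was not tested.

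The genes beside each member were compared next, taking the 2 nearest with a row on either side. Of these 32 neighbours 23 were tested, 10 rose, 5 fell and 8 did not pass (median log2 change 0.12). The called share was the 65.2% of all genes tested, so nothing about the neighbours is read from the count. Of the 13 tested within 100 kb 5 rose and 4 fell. FAM163B had a lowered gene on each side, with an untested antisense gene between it and DBH. ADAMTSL2, a secreted glycoprotein of the fibrillin-rich matrix that lies 2.90 kb away, fell to 2.71 ± 0.457 CPM with panobinostat, against 16.2 ± 0.408 CPM with vehicle (log2 change -2.57 ± 0.15, edgeR adjusted p = 1.81e-09). DBH, the enzyme gene of noradrenaline synthesis that lies 49.2 kb away, fell by 5.10 ± 0.14. SLC2A6, 99.3 kb off on the ADAMTSL2 side, did not pass (-0.09 ± 0.14).

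Beside the other members directions were mixed. SND1, the host of LRRC4 on the opposite strand, rose by 0.36 ± 0.07 on the log2 scale while LRRC4 was lower. TOR1AIP2, 23.8 kb from FAM163A, did not pass (0.12 ± 0.07), nor did ASCC1, 7.0 kb from SPOCK2 (0.17 ± 0.09). CHST3, a chondroitin sulphotransferase gene 45.5 kb from SPOCK2 on its other side, fell by 0.82 ± 0.11. Near LRRC4B, ASPDH fell to 0.0416 ± 0.0372 CPM with panobinostat, against 1.30 ± 0.0213 CPM with vehicle, its panobinostat mean being under what 3 counts stand for, and JOSD2 and SYT3 rose by 0.87 ± 0.16 and 1.09 ± 0.17. An unnamed transcript, ENSG00000279675, lies 1.60 kb past the 3′ end of LRRC4C on the same strand. It rose by 3.18 ± 0.27, to 4.40 ± 0.679 CPM with panobinostat against 0.474 ± 0.0480 CPM with vehicle, which is close to the 3.15 ± 0.13 of LRRC4C, and whether its reads come from LRRC4C transcripts was not tested. The closest tested neighbours of SPOCK1 and SPOCK3, KLHL3 (19.1 kb) and TLL1 (629 kb), stood at -0.34 ± 0.19 and 2.16 ± 0.24, of which TLL1 passed.

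Genes with the most similar pattern were found by the distance between log2 CPM profiles over the 6 libraries, each centred on its mean, among the 9930 genes averaging at least 10 CPM. Nearest to FAM163A were LRRC4 (distance 0.499), ENSG00000248540 (0.522) and ARHGAP36 (0.534). Nearest to LRRC4 were ARHGAP36 (0.275), SPOCK2 (0.330) and ENSG00000248540 (0.403). SPOCK2 was closest to IGF2-AS (0.251), the adhesion gene CLMP (0.310) and LRRC4 (0.330). The arms set most of each profile, and the 3 genes were picked for falls of like size, so their closeness to one another follows from the choice. ARHGAP36 stood at 43.7 ± 0.395 CPM with panobinostat and 427 ± 14 CPM with vehicle, a far higher level than any of the 3.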

How the data were processed

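Total RNA of 6 libraries was sequenced, and groups and letters come from the labels. The authors deposited counts per gene made with featureCounts, which the file headers give as version 1.5.0-p3 and the submitters' processing notes as 1.5.1. The notes list Novoalign 2.8, Subread and hg38 as well. The file headers give Ensembl release 84 as the annotation and 2 as the strand option, and their command names 9 alignment files, while 6 libraries were analysed here. The deposited FPKM values are the authors' own; for each member the ratio of count over column total to FPKM was constant across libraries within 0.0157%.

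Symbols came from the gene name table, coordinates from GENCODE 29 (22459 of 22718 genes) and upstream sequence from RefSeq. In edgeR 4.0.16 under R 4.3.3, filterByExpr (minimum count 10, minimum total 15) chose the genes, TMM gave the scaling, and glmQLFTest compared panobinostat minus vehicle. Calls had a Benjamini-Hochberg adjusted p no higher than 0.05 over all genes, and "fell" and "rose" are used of calls. SEs are the change divided by the square root of F, and CPM is TMM-scaled. The edgeR steps were tested on simulated data. Named genes are the members, the netrin-G ligand partners, neighbours and profile matches. Up to 4 called genes per list with the largest changes (averaging at least 1 CPM) were named too. Other list and marker genes named were added after their values were seen. Some genes the rule takes are not reported here. Members and lists were chosen with earlier results of these data known. A planned comparison of protein sequences was not made. Alternatives used DESeq2 1.42.0 and limma 3.58.1, other scalings and filters, a block on the letter and each library left out in turn.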

Additional observations from a re-analysis of the deposited data

How the results depend on the processing

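Across 17 alternatives each, the 5 paralogues kept their direction and their side of the threshold, with adjusted p-values of 0.0158 or less. FAM163A, LRRC4 and SPOCK2, chosen by this comparison, are given as values with no test. Leaving out 1 library gave log2 changes of -3.33 to -3.04 for FAM163A, -3.19 to -3.12 for LRRC4, -3.08 to -2.96 for SPOCK2, -2.31 to -2.12 for FAM163B, -0.81 to -0.55 for LRRC4B, -0.60 to -0.46 for SPOCK1, 3.05 to 3.25 for LRRC4C and 0.78 to 0.82 for SPOCK3. On the log2(FPKM + 1) scale, which understates changes of low genes by construction, FAM163A stood at -2.40, LRRC4 at -1.91, SPOCK2 at -1.43, LRRC4C at 2.15 and SPOCK1 at -0.34. With the letter as a replicate block, 5432 genes rose. Deviations of same-letter libraries correlated at 0.081, -0.021 and 0.104, and those of libraries with different letters at -0.119 to 0.047. The highest values were thus of same-letter libraries, but all were small, and the letters were not taken as pairs. Libraries left out in turn gave 5026 to 5575 genes raised. FAM163A, FAM163B, LRRC4 and SPOCK2 rest on 108 to 175 counts over the panobinostat arm, which limits their precision there.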
